A study of Homo sapiens with 8 samples.

Results

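The genes described here are the transcription factors LEF1, TCF7, TCF7L1 and TCF7L2 with their coactivator β-catenin (CTNNB1) and the feedback gene AXIN2, 6 of the 25168 genes in the count table. They were chosen by symbol, with the lower level of LEF1 in TAK-981-treated cells already known, so the TAK-981 and vehicle values of LEF1 are given as a description without a test. RNA sequencing was done on KG1a, an established acute myeloid leukemia cell line. The 4 groups had 2 libraries each, 8 in all. The combination group received 5 µM TAK-981 and 1 µM venetoclax, the TAK-981 group 5 µM TAK-981 alone, the venetoclax group 1 µM venetoclax alone, and the vehicle group DMSO, each for 48 h. TAK-981 blocks SUMOylation, the attachment of the small protein SUMO to other proteins, at its activating enzyme, and venetoclax inhibits the apoptosis-blocking protein BCL2. All cells were of 1 line. Whether the 2 libraries of a group were grown as separate cultures is not stated in the labels, and the p-values therefore cover only library-to-library spread, part of which may be technical. In bulk RNA, fewer cells of a type and less RNA per cell cannot be told apart.

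In the canonical Wnt pathway, Wnt ligands bind Frizzled receptors and LRP coreceptors, and this protects β-catenin from a destruction complex built on APC and AXIN proteins. β-catenin has no DNA-binding domain and acts on genes through the LEF/TCF proteins, which bind DNA through a high mobility group (HMG) box and recruit TLE corepressors when β-catenin is absent. LEF1 and TCF7 are known for their part in lymphocyte development, LEF1 also acts in granulocyte development and is expressed in some acute leukemias, and AXIN2 is a widely used transcriptional target of the pathway.

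The 4 LEF/TCF genes are paralogs, and a stretch of their conserved coding sequence is shown because it bears on whether short reads can tell them apart. Each line gives the 51 bases at the start of the HMG box, the length of 1 sequencing read, on the coding strand (GRCh38, GENCODE 29). Capitals mark the 38 of 51 bases that are the same in all 4 genes.
LEF1, chr4:108078284-108078334, minus strand: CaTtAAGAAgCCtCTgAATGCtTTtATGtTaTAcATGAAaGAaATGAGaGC
TCF7L2, chr10:113151770-113151820, plus strand: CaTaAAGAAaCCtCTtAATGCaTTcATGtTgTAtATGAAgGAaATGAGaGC
TCF7, chr5:134142769-134142819, plus strand: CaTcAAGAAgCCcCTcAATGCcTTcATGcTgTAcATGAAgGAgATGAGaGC
TCF7L1, chr2:85306251-85306301, plus strand: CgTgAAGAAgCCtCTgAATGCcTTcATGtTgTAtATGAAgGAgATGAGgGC
In this window LEF1 differed from TCF7L2 at 8 bases and from TCF7 and TCF7L1 at 9 bases each. Over all coding windows of that length the closest pair with LEF1 was TCF7L1, at 6 differences. Every pair of the 4 genes differed by at least 5 bases in every such window of their longest coding transcripts.

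Library totals ran between 13204588 and 26304900 counts. The immature cell marker CD34 stood at 952 to 1519 CPM (counts per 1000000, with library totals adjusted by TMM scaling) in the 8 libraries, and the 11 markers of immature CD34-positive leukemia cells summed to 3085 to 3867 CPM. Of these markers, CD34, SPN, PTPRC, RUNX1 and MYB averaged 340 to 1204 CPM over the 8 libraries. CD33, KIT, PROM1, SPI1 and CD38 averaged only 0.760 to 1.43 CPM, and FLT3 had 7 counts in all libraries together. The 14 T cell markers in the table summed to 96.0 to 139 CPM. The most abundant were ZAP70, CD3D and GATA3, with means of 36.1, 27.8 and 26.8 CPM over the 8 libraries. In contrast, CD4 was at 0 counts in all libraries and LCK at 3 counts in all libraries together. The 12 B cell markers summed to 9.90 to 19.9 CPM. The venetoclax replicates differed from each other by a median of 0.262 log2 units over 9858 genes, against 0.088 to 0.101 in the other groups, and the fit pools this spread over all comparisons.

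Of the 6 genes, LEF1, TCF7L2 and CTNNB1 passed the filter on low counts. LEF1 (chr4:108047545-108168956, minus strand, hg38) had 18.6 and 18.4 CPM in combination-treated cells, 22.3 and 20.3 CPM in TAK-981-treated cells, 97.3 and 80.9 CPM in venetoclax-treated cells and 71.9 and 73.5 CPM in vehicle-treated cells. The 4 libraries with TAK-981 were all lower than the 4 libraries without it, which is a description of a gene chosen for its fall with TAK-981. The share of all genes that separate in this way was not counted. The group means were 18.5 ± 0.150, 21.3 ± 1.43, 89.1 ± 11.6 and 72.7 ± 1.15 CPM (SD, n = 2) for the combination, TAK-981, venetoclax and vehicle. In order of level, from low to high, the groups ran combination, TAK-981, vehicle, venetoclax. Neighbours in that order did not overlap, but the share of all genes whose groups separate like this was not counted either. With 2 libraries a group the small steps at either end were not tested.

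**Figure D1:**
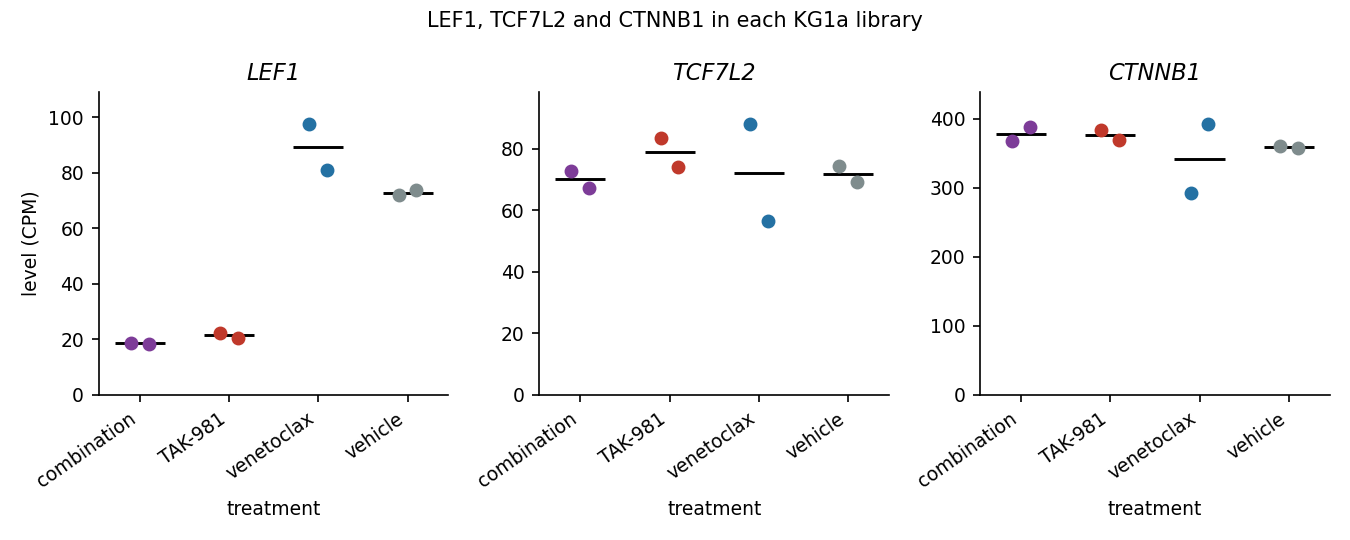
Level in CPM of LEF1, TCF7L2 and CTNNB1 by treatment; points are the 2 libraries of a group and bars their mean. LEF1 lies between 18.4 and 22.3 CPM in the 4 libraries with TAK-981 and between 71.9 and 97.3 CPM in the 4 without it, while for TCF7L2 and CTNNB1 the 2 venetoclax libraries span the values of all other groups.

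LEF1 fell in cells treated with the combination relative to cells treated with venetoclax alone. The log2 fold change was -2.27 ± 0.125 (SE, 95% interval -2.55 to -1.99), which is 4.82-fold lower, with an adjusted p of 1.92e-05 by edgeR's quasi-likelihood F test with Benjamini-Hochberg adjustment over 12843 genes. In that comparison 39.6% of all tested genes were called, 17.6% higher and 22.0% lower, and 3 of 9858 genes of at least 5 CPM had a larger fall than LEF1. The combination and venetoclax libraries are not part of the comparison of TAK-981 with vehicle. They share its fit, however, the combination also contains TAK-981, and the genes were chosen with results of these data known, so this p is not shown to be independent of that choice. Against vehicle, the log2 fold change of LEF1 was -1.77 for TAK-981 and -1.98 for the combination, given as values without a test because the vehicle and TAK-981 libraries served to choose it. The log2 fold change of LEF1 was 0.29 for venetoclax against vehicle and -0.21 for the combination against TAK-981, likewise without a test. The venetoclax value was 0.16 without venetoclax replicate 1 and 0.42 without venetoclax replicate 2, and the combination value was -0.14 without TAK-981 replicate 1 and -0.29 without TAK-981 replicate 2. The interaction, which is the change with TAK-981 in venetoclax-treated cells less that in vehicle-treated cells, was -0.50 for LEF1, also without a test, and ran between -0.65 and -0.37 with 1 library left out. Across all genes, 12.2% were called in TAK-981 against vehicle (5.98% higher, 6.18% lower), 20.8% in venetoclax against vehicle (11.4% higher, 9.44% lower), 27.9% in the combination against vehicle (12.8% higher, 15.1% lower) and 8.80% in the combination against TAK-981 (2.76% higher, 6.03% lower).

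Markers of other blood cell types were set beside the LEF1 values. T cell markers summed to 100 and 110 CPM in combination-treated cells against 109 and 96.0 CPM in venetoclax-treated cells, and to 127 and 139 CPM in TAK-981-treated cells against 123 and 123 CPM in vehicle-treated cells. In the combination against venetoclax, 17.6% of all tested genes were called higher and 22.0% lower. Of 8 tested T cell markers 2 were higher and 2 lower in that comparison. These counts changed in some of the fits that left out 1 library, and the number of all genes called changed too. CD3E, a T cell receptor complex subunit, was lower there, at 5.62 and 6.41 CPM in combination-treated cells against 13.1 and 10.4 CPM in venetoclax-treated cells (log2 fold change -0.96, adjusted p = 0.00417 by edgeR's test). CD247 was also lower (-1.99, 0.0161), while ZAP70 (0.68, 0.0170) and IL7R (1.87, 0.0107) were higher by the same test. CD247 and IL7R averaged 0.919 and 0.778 CPM over the 8 libraries. Mature myeloid markers summed to 44.3 and 50.1 CPM in combination-treated cells against 25.4 and 35.4 CPM in venetoclax-treated cells. Of 4 tested, ITGAM, CEBPA and MPO were called higher. CSF3R, the most abundant of the 4 with a mean of 26.2 CPM, was not called (log2 fold change -0.11, adjusted p = 0.631 by edgeR's test). CEBPA was lost when combination replicate 1 or combination replicate 2 was left out, and MPO, at 3 and 3 counts in combination-treated cells against 0 and 0 in venetoclax-treated cells, was called in 0 of the 8 fits that left out 1 library. ELANE and PRTN3, which define granulocyte precursors, were at 0 counts in all libraries. ITGAM, a myeloid integrin, was at 8.32 and 7.72 CPM in combination-treated cells against 1.45 and 1.05 CPM in venetoclax-treated cells, and at 14.1 and 14.2 CPM in TAK-981-treated cells against 2.95 and 2.95 CPM in vehicle-treated cells. The part of these marker differences in the LEF1 values was not tested.

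TCF7L2 (chr10:112950250-113167678, plus strand), a paralog of LEF1 with widespread expression, had 72.9 and 67.3 CPM in combination-treated cells, 83.7 and 74.0 CPM in TAK-981-treated cells, 88.0 and 56.6 CPM in venetoclax-treated cells and 74.3 and 69.4 CPM in vehicle-treated cells. The 2 venetoclax libraries held both the highest and the lowest value. The combination differed from venetoclax by a log2 fold change of -0.036 (95% interval -0.44 to 0.37, adjusted p = 0.888), and venetoclax from vehicle by 0.0023 (adjusted p = 0.997), neither past the threshold in edgeR's test. These values depended on the venetoclax libraries. With venetoclax replicate 1 left out, TCF7L2 had log2 fold changes of 0.30 for the combination against venetoclax and -0.34 for venetoclax against vehicle. Without venetoclax replicate 2 they were -0.33 and 0.29, and the interaction was -0.48. Such fits leave 1 venetoclax library and hold no spread for that group, so no p is given for them. With all libraries the interaction was -0.17 (adjusted p = 0.735), in a test that called 0.0311% of genes. The combination differed from TAK-981 by -0.17 (adjusted p = 0.610; -0.079 without TAK-981 replicate 1 and -0.27 without TAK-981 replicate 2) and from vehicle by -0.034 (0.911).

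CTNNB1 (chr3:41194837-41260096, plus strand), which encodes β-catenin, was the most abundant of the 3. It had 368 and 388.7 CPM in combination-treated cells, 383.7 and 369.5 CPM in TAK-981-treated cells, 292 and 391.8 CPM in venetoclax-treated cells and 360.8 and 358 CPM in vehicle-treated cells. The venetoclax libraries again bracketed the other groups. The combination differed from venetoclax by a log2 fold change of 0.15 (95% interval -0.16 to 0.45, adjusted p = 0.420 by edgeR's test). Venetoclax differed from vehicle by -0.071 (adjusted p = 0.738), the combination from TAK-981 by 0.0066 (0.984) and the combination from vehicle by 0.074 (0.728). Without venetoclax replicate 2, the combination differed from venetoclax by 0.36 and venetoclax from vehicle by -0.30. Without venetoclax replicate 1 these values were -0.058 and 0.13, again with 1 venetoclax library left and no p given. For TAK-981 against vehicle the log2 fold changes were 0.14 for TCF7L2 and 0.067 for CTNNB1. Leaving out TAK-981 replicate 1 gave 0.041 for TCF7L2 and 0.037 for CTNNB1, and leaving out TAK-981 replicate 2 gave 0.22 and 0.095.

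**Figure D2:**
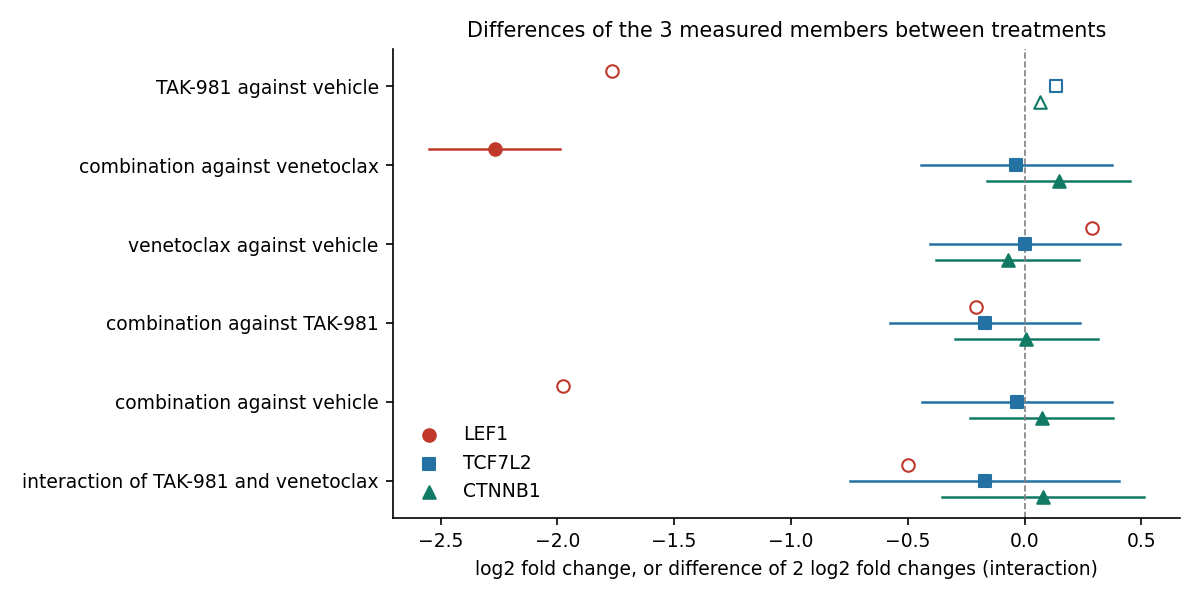
Log2 fold changes of the 3 genes in each comparison, and the interaction as a difference of 2 log2 fold changes; filled symbols are tested values with 95% intervals and open symbols are values given without a test. LEF1 stands at -2.27 for the combination against venetoclax, and the intervals of TCF7L2 and CTNNB1 include 0 in every tested comparison.

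Gene lengths allow the 3 levels to be set side by side as CPM per kilobase. LEF1 stood at 3.45 in combination-treated cells, 3.99 in TAK-981-treated cells, 16.7 in venetoclax-treated cells and 13.6 in vehicle-treated cells, and TCF7L2 at 14.3, 16.0, 14.7 and 14.6 in the same groups. CTNNB1 was at 57.4, 57.1, 51.9 and 54.5 CPM per kilobase. As a share of LEF1 plus TCF7L2 per kilobase, LEF1 made up 19.0% and 20.1% in the combination libraries, 19.7% and 20.2% in the TAK-981 libraries, 50.4% and 56.8% in the venetoclax libraries and 47.1% and 49.4% in the vehicle libraries. Each library with TAK-981 had a lower share than each library without it, again a description of a gene chosen for its fall.

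**Figure D3:**
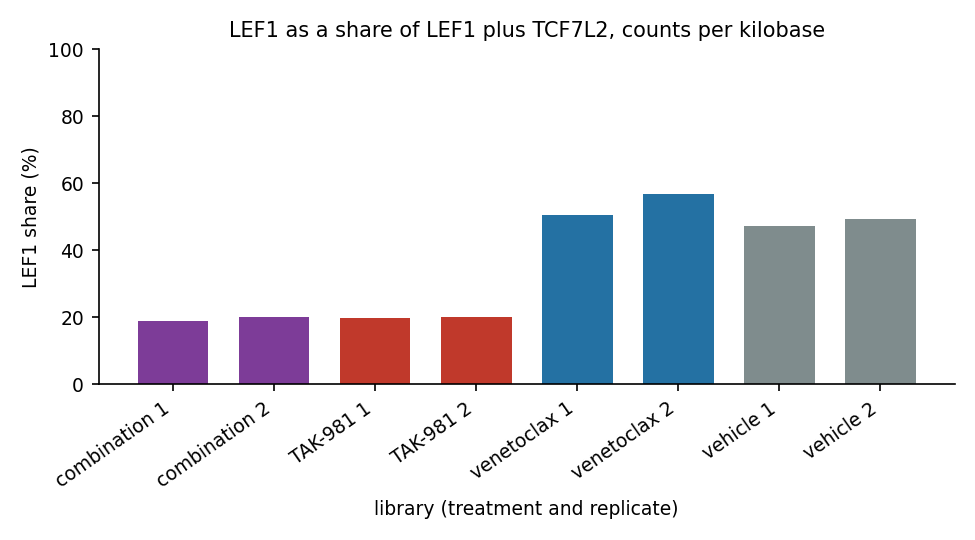
LEF1 as a percentage of LEF1 plus TCF7L2 (counts per kilobase) in each library. The 4 libraries with TAK-981 lie between 19.0% and 20.2%, and the 4 without it between 47.1% and 56.8%.

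TCF7 and TCF7L1 had 0 counts in every library, and AXIN2 had 2 counts, 1 in venetoclax replicate 2 and 1 in combination replicate 2. Against 162566916 counts in all, 3 counts correspond to 0.0185 per 1000000 counts, and in a single library to 0.117 to 0.228 CPM. Levels below that were not detectable at this depth, and no treatment effect on TCF7, TCF7L1 or AXIN2 can be given. The counts of LEF1 may include reads of LEF1-AS1, the antisense gene that overlaps it over 1432 bases and had 1 to 4 counts per library, and those of CTNNB1 overlap ULK4 on the opposite strand over 13490 bases, at 208 to 501 counts per library. TCF7 overlaps SKP1 on the opposite strand over 2931 bases, at 1291 to 2230 counts per library, and AXIN2 overlaps CEP112 on the same strand over 5496 bases, at 3 to 10 counts per library. Reads in shared bases could be dropped or given to the neighbour, and this was not tested. The strand setting of the counting is not given in the sources used here.

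The genes whose log2 CPM followed LEF1 most closely over the 8 libraries were the sigma-2 receptor TMEM97 (Pearson r = 0.993), PM20D2 (0.993), the angiomotin AMOT (0.992), the adhesion molecule CDH2 (0.992), the heme exporter FLVCR1 (0.991) and the nuclear import receptor IPO5 (0.991), among 9228 genes of at least 5 CPM, leaving out unnamed and noncoding ones. These r values are descriptions without a test, since the libraries are split by TAK-981 and r follows that split. In the combination against venetoclax the log2 fold changes were -1.26 for TMEM97, -1.23 for PM20D2, -1.08 for AMOT, -1.53 for CDH2, -0.65 for FLVCR1 and -0.68 for IPO5. CDH2, the cadherin whose tail binds β-catenin, had 56.8 and 53.5 CPM in combination-treated cells, 54.2 and 50.2 CPM in TAK-981-treated cells, 164 and 154 CPM in venetoclax-treated cells and 145 and 152 CPM in vehicle-treated cells. For TCF7L2 the closest genes were CHD9 (0.978), CDH9 (0.972) and SRSF5 (0.967), and for CTNNB1 they included ATP6V1A (0.986) and MRPL54 (0.970).

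**Figure D4:**
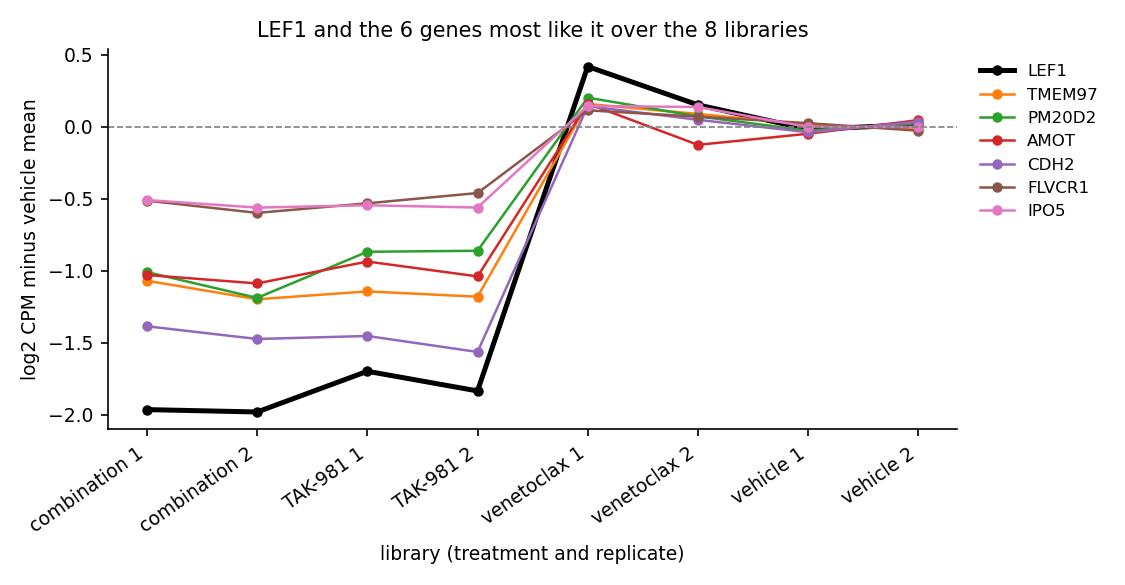
Log2 CPM of LEF1 and of the 6 genes most like it in each library, as the difference from the vehicle mean. All of them lie below the vehicle mean in the 4 libraries with TAK-981, LEF1 furthest, and much closer to it in the other 4.

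Of 19 Wnt ligands only WNT10B passed the filter, with 10 and 5 counts in combination-treated cells, 8 and 12 in TAK-981-treated cells, 5 and 18 in venetoclax-treated cells and 27 and 33 in vehicle-treated cells. It was lower in the combination than in vehicle (log2 fold change -1.61, adjusted p = 0.0268 by edgeR's test), a call lost when any 1 of the combination or vehicle libraries was left out. Of the Wnt receptors and coreceptors, 10 were tested. In the combination against venetoclax 2 were higher and 1 was lower, against 17.6% higher and 22.0% lower over all tested genes. LRP5, a coreceptor, was at 67.3 and 69.6 CPM in combination-treated cells against 40.2 and 53.5 CPM in venetoclax-treated cells (0.54, adjusted p = 0.0254), FZD2 was higher (1.33, 0.0275) and ROR1 lower (-1.02, 0.0476). Without combination replicate 1 or without replicate 2 no receptor was called higher, FZD2 was also lost without venetoclax replicate 1, and ROR1 was lost in 7 of the 8 fits that left out 1 library. LRP6 had 4 counts in all libraries together. Of the secretion and extracellular genes, 3 were tested and KREMEN1 alone was higher (2.06, adjusted p = 0.0410), a call kept in 1 of those 8 fits. KREMEN1 was near the floor, with a mean of 0.471 CPM over the 8 libraries.

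Among 24 Dishevelled and destruction complex genes, 2 were higher and 5 lower in the combination than in venetoclax. Over all tested genes 17.6% were called higher and 22.0% lower there. The median log2 fold change of these 24 genes was -0.092 against -0.021 over all tested genes. The casein kinase CSNK1G3 (-0.82, adjusted p = 0.00359), the deubiquitinase USP7 (-0.59, 0.00677) and CSNK1E (0.79, 0.0148) had the smallest p, and the calls of USP7 and CSNK1E were lost without combination replicate 2. Both counts moved with the library left out, as did the number called over all tested genes. Of 24 nuclear cofactors 5 were higher and 5 lower (median -0.037), against 17.6% higher and 22.0% lower over all tested genes. BCL9L, which bridges β-catenin to its coactivators, had 44.9 and 43.4 CPM in combination-treated cells against 15.8 and 19.6 CPM in venetoclax-treated cells (1.31, adjusted p = 0.000440), and 36.8 and 42.7 CPM in TAK-981-treated cells against 20.7 and 18.3 CPM in vehicle-treated cells. The corepressor subunit TBL1XR1 was lower (-0.74, 0.000896) and the mediator subunit MED12 was higher (0.76, 0.00169). The cofactor counts also moved with the library left out, together with the number called over all tested genes.

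Of 40 genes listed as Wnt targets, 20 were tested. In the combination against venetoclax 5 were higher and 6 lower (median -0.24). LEF1, chosen for its fall with TAK-981, is 1 of the 6 and enters the median. Over all tested genes 17.6% were called higher and 22.0% lower. The matrix metalloproteinase MMP7 was at 2.24 and 1.67 CPM in combination-treated cells against 6.85 and 7.99 CPM in venetoclax-treated cells (-1.90, adjusted p = 0.000559). The inhibitor of differentiation ID2 was at 83.2 and 88.0 CPM in combination-treated cells against 29.3 and 39.7 CPM in venetoclax-treated cells (1.30, 0.000704), and the kinase SGK1 at 8.37 and 9.10 CPM in combination-treated cells against 2.21 and 3.12 CPM in venetoclax-treated cells (1.67, 0.000742). MYC was lower (-0.61, 0.0105), and this call was lost without combination replicate 1. CCND1 was at 15 and 10 counts in combination-treated cells against 2 and 2 counts in venetoclax-treated cells. The counts of called targets depended on the library left out, and so did the number called over all tested genes.

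The adhesion list held cadherin, catenin and catenin-like genes, called adhesion partners here whether or not they bind β-catenin itself. All 5 tested genes of this list passed the threshold in the combination against venetoclax, 3 higher and 2 lower. In that comparison 39.6% of all tested genes were called. JUP, plakoglobin, which is a close relative of β-catenin, was at 77.5 and 97.6 CPM in combination-treated cells against 19.8 and 24.3 CPM in venetoclax-treated cells (1.98, adjusted p = 0.000117), and at 86.9 and 105 CPM in TAK-981-treated cells against 53.7 and 52.5 CPM in vehicle-treated cells. In venetoclax against vehicle, JUP was lower (-1.26, adjusted p = 0.00234). CDH2 fell (-1.53, 3.37e-05), CTNNAL1 fell (-1.15, 0.000881) at 19.3 and 18.3 CPM in combination-treated cells against 47.1 and 36.8 CPM in venetoclax-treated cells, and CTNND1 rose (0.60, 0.00395). CTNNA1, α-catenin, was called higher (2.54, 0.0261), on 33 and 29 counts in combination-treated cells against 9 and 2 counts in venetoclax-treated cells, and was lost without venetoclax replicate 2 or when combination replicate 1 or combination replicate 2 was left out.

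**Figure D5:**
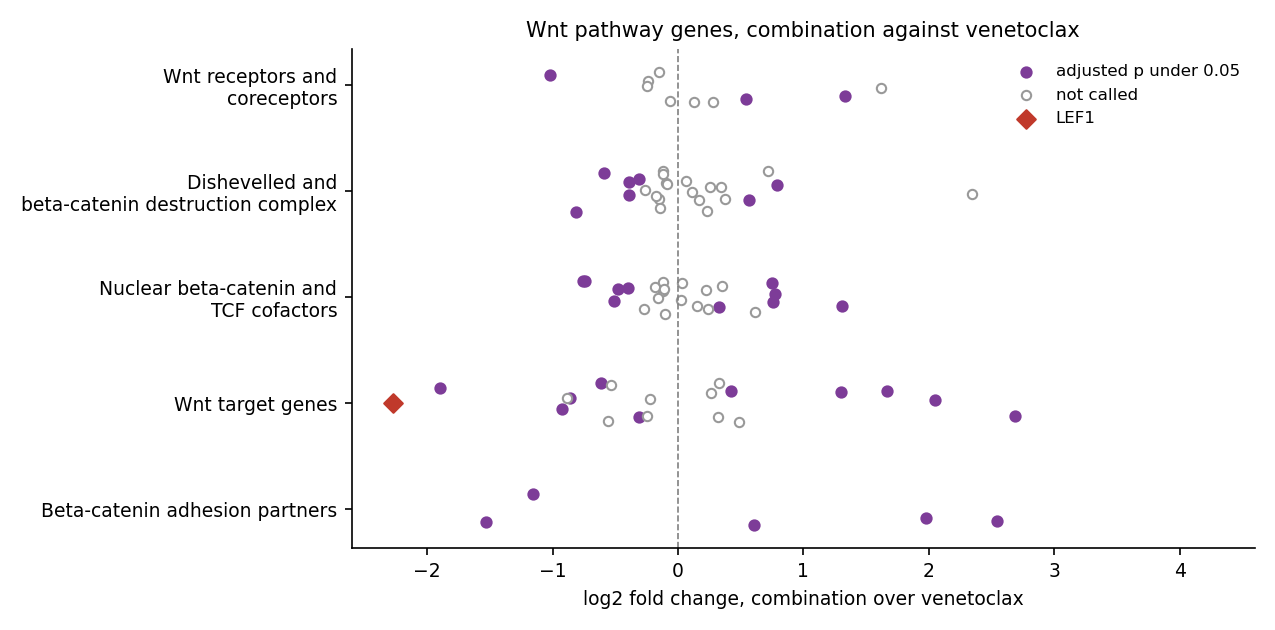
Log2 fold change, combination over venetoclax, of the tested genes of 5 pathway lists; filled points have an adjusted p under 0.05 and open points do not. Called genes lie on both sides of 0 in each list, LEF1 is at -2.27, and the 5 adhesion partners are all called. Of all tested genes 39.6% were called in this comparison.

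In TAK-981 against vehicle, the comparison in which LEF1 was chosen, 12.2% of all tested genes were called. Of the lists, 0 of 10 receptors, 1 of 24 destruction complex genes (APC2) and 2 of 24 cofactors (BCL9L higher, TNIK lower) were called. So were 3 of 5 adhesion partners (JUP higher, CDH2 and CTNNAL1 lower). Among the targets other than LEF1, SGK1 was higher and MMP7 and MYC were lower. MMP7 had 2.28 and 2.89 CPM in TAK-981-treated cells against 10.2 and 10.5 CPM in vehicle-treated cells, and MYC 178 and 198 CPM in TAK-981-treated cells against 290.3 and 305 CPM in vehicle-treated cells. The calls of BCL9L, SGK1, MMP7 and CDH2 were kept in each fit that left out 1 library. That of MYC was lost when any 1 of the TAK-981 or vehicle libraries was left out, that of JUP without TAK-981 replicate 2, vehicle replicate 1 or vehicle replicate 2, and that of CTNNAL1 without TAK-981 replicate 2 or vehicle replicate 2, while TNIK was kept in 2 and APC2 in 3 of the 8 fits. In venetoclax against vehicle, with 20.8% of all tested genes called, 3 cofactors were higher and 1 lower. Of the destruction complex genes 2 were higher and 2 lower, and 3 of 20 targets were called. JUN and the angiogenic factor VEGFA were lower (-2.53, adjusted p = 0.0104, and -1.33, 0.0121) and BIRC5 was higher (0.49, 0.0495), by edgeR's test. All of these calls were lost when vehicle replicate 1 or vehicle replicate 2 was left out, and BIRC5 was kept in 3 of 8 fits. In the combination against vehicle, 27.9% of all tested genes were called, 12.8% higher and 15.1% lower. There 4 of 10 receptors were lower, among them the orphan receptor tyrosine kinase ROR1 (-1.91, adjusted p = 0.00304 by edgeR's test). All 5 adhesion partners were called. ROR1 and CDH2 were kept in each fit that left out 1 library. The other 3 receptors (FZD6, FZD7 and LGR5) were lost without combination replicate 1, and the other adhesion partners were lost without combination replicate 2. In the combination against TAK-981, ID2 was higher (1.52, adjusted p = 0.00205) and VEGFA lower (-2.38, 0.00310), and the receptor FZD6 was lower, at 75.4 and 75.8 CPM in combination-treated cells against 100.1 and 103 CPM in TAK-981-treated cells (-0.42, 0.0223), a call kept in 2 of 8 fits. No listed gene was called in the interaction, a test that called 0.0311% of all tested genes.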

How the data were processed

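RNA was sequenced from KG1a cells in 4 treatment groups of 2 libraries, grouped by the submitters' treatment labels. The authors deposited whole-number read counts for each gene, without normalization, on hg38. The submitters' processing notes list Trimmomatic, STAR 2.6.0, HTSeq 0.11.1 and edgeR, with no role given. How strand and multi-mapping reads were handled, and which annotation was used, is not given. The series text speaks of ribosomal RNA depletion, whereas a SMART-Seq low-input kit is named in the labels' protocols. Gene counts cannot separate LEF1 isoforms with and without the β-catenin binding domain.

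The main test was edgeR 4.0.16's quasi-likelihood F test (limma 3.58.1, R 4.3.3), with TMM scaling, filterByExpr by group and 1 fit to all 8 libraries. Of 25168 genes 12843 were tested, p-values were adjusted over all of them (Benjamini-Hochberg), and the threshold was 0.05. An SE is |log2 fold change| divided by √F, which is approximate, and 95% intervals rest on it. CPM uses library totals adjusted by TMM, and log2 CPM used a prior count of 2. Floors of 3 counts cover counting error only. The members and the gene lists were chosen with earlier results of these data known. Named genes are, per list and comparison, up to 3 called genes of smallest p and up to 2 others. For likeness they are the 6 genes of highest r with LEF1 and the 3 of highest r with each other member tested, of which 1 is not reported here, leaving out unnamed symbols and RefSeq noncoding biotypes. Of 210 distinct list genes 207 matched the table, 2 by an older name. The test was checked on simulated counts.

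Alternatives were DESeq2's size factors, no low-count filter, genes averaging 1 CPM or more, a replicate-number block, leaving out each library, voom, DESeq2 1.42.0, and fitting only the 4 libraries compared. Sequences were compared with Python 3.11.15.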

Additional observations from a re-analysis of the deposited data

How the results depend on the processing

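LEF1 kept its direction in each comparison under every alternative run. For the combination against venetoclax its log2 fold change ran between -2.41 and -2.14 over 15 alternatives. LEF1 was chosen for its fall with TAK-981 in these data, so its kept direction is a description. TCF7L2 and CTNNB1 had differences near 0, and in several comparisons the sign turned with the setting. TCF7L2 in venetoclax against vehicle, at 0.0023, was -0.0092 with DESeq2's size factors, -0.0080 without a filter, -0.014 at 1 CPM or more, -0.054 with voom, -0.0061 with DESeq2 and -0.012 with 4 libraries. In the combination against venetoclax TCF7L2 was 0.024 with voom and 0.0073 with 4 libraries, and CTNNB1 in the combination against TAK-981 was -0.0099 without a filter. With 1 library left out, TCF7L2 ran between -0.34 and 0.29 for venetoclax against vehicle, -0.10 and 0.021 for the combination against vehicle, -0.33 and 0.30 for the combination against venetoclax, and -0.48 and 0.17 for the interaction. CTNNB1 ran between -0.30 and 0.13, -0.058 and 0.36 (combination against venetoclax), -0.032 and 0.042 (combination against TAK-981) and -0.12 and 0.29 (interaction). The cause was not tested.

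The labels do not say that a replicate number marks a shared batch, and the deviations of same-numbered libraries correlated between -0.041 and 0.38. With the replicate block, TCF7L2 in venetoclax against vehicle was -0.017 and the interaction called 24 genes.

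The interaction called 4 genes, against 8 with DESeq2's size factors, 1098 without a filter, 9 with voom and 300 with DESeq2. The combination against TAK-981 called 1875 genes without a filter, against 1130. With only the 4 libraries compared, the counts were 4096 (TAK-981 against vehicle), 200 (venetoclax against vehicle), 5740 (combination against vehicle), 2497 (combination against venetoclax) and 3746 (combination against TAK-981), and the share called higher was 31.5% against 54.7% in venetoclax against vehicle and 45.8% against 31.4% in the combination against TAK-981. With 1 library left out, the counts ran between 336 and 3879, 253 and 5360, 1431 and 6152, 2386 and 7204, and 65 and 3696 in the same order, and between 0 and 4440 for the interaction. Depth limits TCF7, TCF7L1 and AXIN2, which stood at or under 3 counts.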
